A study of Homo sapiens with 10 samples.

Results

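The genes described here make, receive and limit endothelial nitric oxide (NO), build caveolae, and produce endothelin-1. They were the 10 genes whose Ensembl identifiers map in GENCODE 44 to NOS3, DDAH1, DDAH2, GUCY1A1, GUCY1B1, CAV1, CAV2, CAVIN1, EDN1 and ECE1, out of 60448 genes in the table of read counts. All 10 were found, each in 1 row, and 9 of them had enough counts to be tested. Untreated cells of 2 human endothelial lines were compared, with 5 libraries from independent biological replicates of each line. EA.hy926 is a hybrid of umbilical vein endothelial cells and the lung carcinoma line A549, and it was kept in Advanced DMEM with 5% fetal bovine serum. HMEC-1 is a line of dermal microvascular endothelial cells that carry the SV40 large T antigen, and it was kept in MCDB 131 medium with hydrocortisone at 1 µg/mL, epidermal growth factor at 10 ng/mL and serum at 10%. Each line is a single established line that grew in its own medium, so an effect of the line and an effect of the medium cannot be told apart. The question was how far these vasoactive genes differ between the 2 endothelial models. An EA.hy926 library held between 34846046 and 39899324 counts, and an HMEC-1 library between 33391640 and 43877224.

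NO diffuses from the endothelium to the underlying smooth muscle and relaxes it, and endothelin-1 from the same cells contracts it. NOS3 makes NO from arginine with tetrahydrobiopterin as a cofactor, and methylated arginines, which DDAH1 breaks down, inhibit it. The receptor of NO is soluble guanylyl cyclase, a dimer of an alpha and a beta subunit, and its product cyclic GMP (cGMP) is removed by phosphodiesterases. Caveolae are small flask-shaped pits of the plasma membrane, formed by caveolins and cavins, and caveolin-1 binds NOS3 and holds its activity down. EDN1 encodes the precursor of endothelin-1, which is cut by furin and then by ECE1, and the peptide acts on the receptors EDNRA and EDNRB.

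For NOS3, CAV1 and EDN1, the sequence just upstream of the RefSeq start is shown, because these 3 genes carry the NO, caveolar and endothelin results. It was taken from the RefSeq promoter windows on GRCh38.p14 and restricted to bases outside annotated exons, which left 221 bases for NOS3, 235 for CAV1 and 250 for EDN1. The RefSeq start of NOS3, at 150993782 on chromosome 7, lies inside the GENCODE span of the gene, which begins further upstream. Capitals mark motifs searched on both strands, each with its reverse complement. They were CACCC (the core of the box bound by KLF factors), the GATA motif spelled AGATAA, and the TATA box spelled TATAAA.

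NOS3, chr7:150993532-150993752, plus strand: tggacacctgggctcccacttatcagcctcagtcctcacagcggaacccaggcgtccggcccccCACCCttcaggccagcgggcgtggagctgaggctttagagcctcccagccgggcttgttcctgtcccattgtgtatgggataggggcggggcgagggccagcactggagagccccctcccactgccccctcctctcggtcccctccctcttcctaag
CAV1, chr7:116524759-116524993, plus strand: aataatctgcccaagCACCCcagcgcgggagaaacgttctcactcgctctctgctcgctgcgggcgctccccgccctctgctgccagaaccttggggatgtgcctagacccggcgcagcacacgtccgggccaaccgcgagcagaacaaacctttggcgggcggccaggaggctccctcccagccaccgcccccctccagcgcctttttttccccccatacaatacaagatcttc
EDN1, chr6:12290111-12290360, plus strand: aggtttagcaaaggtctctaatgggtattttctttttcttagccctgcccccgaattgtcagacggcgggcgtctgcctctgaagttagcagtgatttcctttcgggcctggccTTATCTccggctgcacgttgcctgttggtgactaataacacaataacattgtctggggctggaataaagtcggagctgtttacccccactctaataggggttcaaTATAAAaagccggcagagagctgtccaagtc

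The NOS3 and CAV1 windows each held 1 CACCC motif and neither a GATA motif nor a TATA box, and the EDN1 window held 1 GATA motif, 1 TATA box and no CACCC motif. The windows of the 3 genes had GC contents of 66.8%, 63.6% and 49.2% over the 250 bases before the start. CACCC or its complement was found in 54.7% of all 35116 windows of 250 bases, AGATAA or its complement in 9.17% and TATAAA or its complement in 10.7%. A match is a description of these letters and not a site shown to be bound.

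Read counts were scaled by TMM factors and are given as CPM (counts per 1000000 counts of the scaled library), mean ± SD over the 5 libraries of a line. The lines were compared with edgeR's quasi-likelihood test, with Benjamini-Hochberg adjustment over the 16310 genes tested. The log2 fold change (log2FC) is above 0 where EA.hy926 is higher, and a gene was called when its adjusted p was below 0.05 and its log2FC was beyond 1 in either direction. Of the 9 members tested, 7 were called, 5 higher and 2 lower in EA.hy926. Among all genes tested, 35.5% were called, 19.1% higher and 16.4% lower. Every tested member passed the adjusted p alone, 6 of them higher and 3 lower, as did 85.8% of all genes tested (42.6% higher and 43.3% lower). The CPM values of the 2 lines did not overlap for 8 of the 9 tested members, against 77.4% of all genes tested. The members were chosen with earlier results of these data known, so these shares describe them and test nothing. When libraries were scaled by their totals alone, log2FC values shifted by a median of -0.13 over all genes, and 5 members were called, 3 higher and 2 lower. In bulk RNA, fewer expressing cells and less RNA per cell cannot be told apart.

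**Figure D1:**
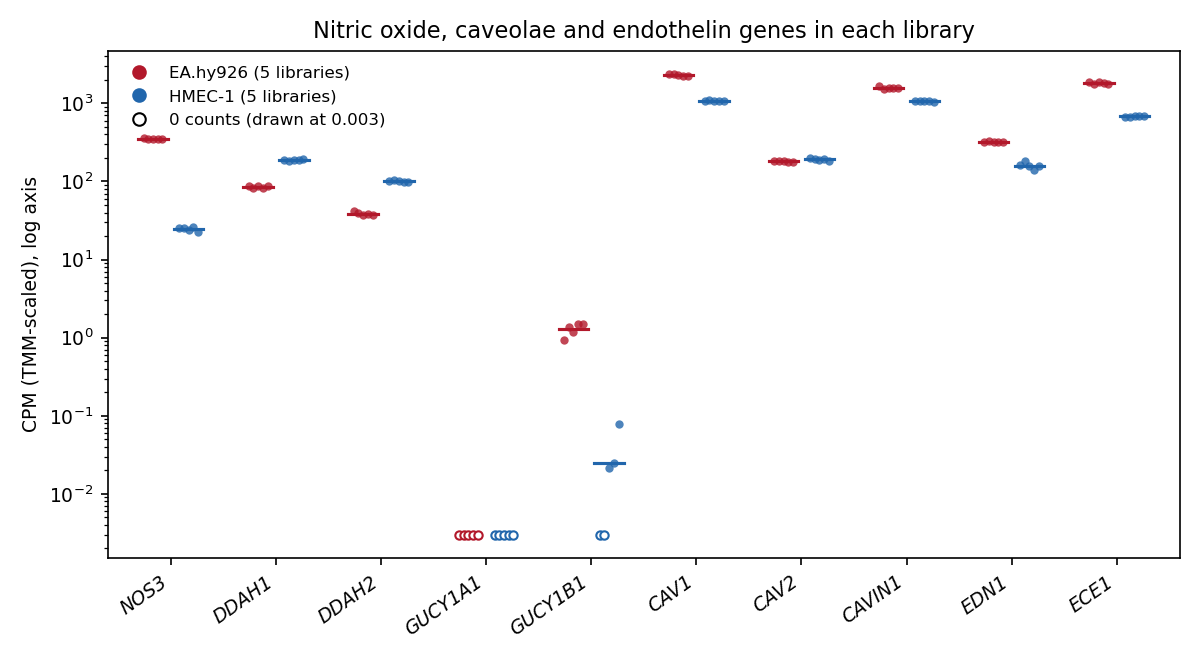
CPM of each of the 10 genes (log axis) in the 5 EA.hy926 and the 5 HMEC-1 libraries, with each library as a point, the mean of a line as a bar, and libraries with 0 counts as open points at the bottom. NOS3 lies far higher in EA.hy926, DDAH1 and DDAH2 lie higher in HMEC-1, CAV2 nearly coincides, and GUCY1A1 has no count in any library.

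NOS3 (ENSG00000164867, GRCh38 chr7:150991017-151014588, plus strand) encodes endothelial NO synthase and had the smallest adjusted p of the members. Its CPM was 361, 349, 352, 346 and 345 in the EA.hy926 libraries and 25.7, 25.2, 24.1, 25.9 and 22.7 in the HMEC-1 libraries. All EA.hy926 libraries lay far above all HMEC-1 libraries, with 350.5 ± 6.62 against 24.7 ± 1.30 CPM (n = 5 each). The log2FC was 3.83 with a standard error of 0.033 (adjusted p = 5.4e-27), a fold of 14.2. Leaving out any 1 library gave 3.78 to 3.84. In level per kilobase of exon, NOS3 was 678th of the genes tested in EA.hy926 (top 4.16%) and 7446th in HMEC-1 (top 45.7%). NOS3 was still plainly present in HMEC-1, with 869 to 1112 counts in a library. The gene ATG9B on the opposite strand covers 13.3% of the exonic bases of NOS3, and whether counting used the strand is not stated, so reads in the shared bases cannot be assigned. ATG9B itself had 6.97 ± 0.729 against 0.897 ± 0.174 CPM, small beside NOS3 in both lines.

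The 3 genes whose expression over the 10 libraries was most like that of NOS3, by the root mean square difference of gene-centred log2 CPM, were LAMB3, IRAK2 and CACNG6, at 0.0745 to 0.0772. LAMB3 encodes a laminin chain, IRAK2 a kinase of interleukin-1 and Toll-like receptor signalling, and CACNG6 a calcium channel subunit. Their log2FC values were 3.80 to 3.88.

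NO synthesis also needs substrate, cofactor and chaperone, and a list of 26 such genes was examined. Of these, 22 were tested and 5 were called, 1 higher and 4 lower in EA.hy926. This is 22.7% of those tested, against 35.5% of all genes tested. The median log2FC of the tested genes was -0.10, against -0.01 for all genes. NOS1 and NOS2, the neuronal and inducible synthases, had no count in any library. ASS1, which returns citrulline to the arginine cycle, was higher in EA.hy926 (85.4 ± 5.12 against 30.0 ± 1.96 CPM, log2FC 1.51). The cationic amino acid transporters that bring arginine into the cell were lower. SLC7A1 had 40.0 ± 1.87 against 152 ± 5.49 CPM (log2FC -1.93), and SLC7A2 had 5.74 ± 0.195 against 24.4 ± 0.565 CPM (log2FC -2.09). The adjusted p of these 3 genes in edgeR's test lay between 5.5e-22 and 4.8e-18.

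Also called was KLF4, a transcription factor of the family that binds CACCC boxes. It was lower in EA.hy926, with 3.05 ± 0.613 against 28.1 ± 0.945 CPM and a log2FC of -3.20 (SE 0.083, adjusted p = 3.5e-19 by edgeR). Its relative KLF2, a flow-induced activator of NOS3 transcription, was named after its values were seen. KLF2 had 250.2 to 265 CPM in EA.hy926 against 120.1 to 136 CPM, and its log2FC of 0.995 lay just under the size threshold. It passed the threshold (1.00 to 1.01) without EA.hy926 replicate 2, 3, 4 or 5, without HMEC-1 replicate 1, and with at least 10 counts required in every library, which made 2 genes of the list higher in place of 1. The most abundant gene of the list that was not called was HSP90AA1, a chaperone that binds NOS3, with 3074 ± 127 against 2165 ± 49.4 CPM (log2FC 0.51). HSP90AA1 has near-identical copies in the genome, so its counts are uncertain. The remaining genes that were not called had log2FC values of -0.93 to 0.89, among them GCH1, the rate-limiting enzyme of tetrahydrobiopterin synthesis, at 0.10 (adjusted p = 0.12 by edgeR).

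DDAH1, which hydrolyses asymmetric dimethylarginine, and its relative DDAH2 were both lower in EA.hy926. DDAH1 (ENSG00000153904, chr1:85318481-85578363, minus strand) had 87.4, 81.4, 88.3, 83.6 and 88.5 CPM in the EA.hy926 libraries, against 186, 184, 187, 186 and 193 CPM in HMEC-1. Every HMEC-1 library exceeded every EA.hy926 library, and the log2FC was -1.13 (SE 0.028, adjusted p = 1.9e-19). DDAH2 (ENSG00000213722, chr6:31727038-31730617, minus strand) had 41.9, 39.6, 37.3, 38.1 and 37.6 CPM in the EA.hy926 libraries, against 101, 104, 100.0, 99.5 and 98.8 CPM in HMEC-1. The groups again did not overlap, and the log2FC was -1.37 (SE 0.032, adjusted p = 7.9e-20). NOS3 and the DDAH genes therefore differed in opposite directions.

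Per kilobase of exon, the level of DDAH1 was 1.14 times that of DDAH2 in EA.hy926 (1.06 to 1.22 over libraries) and 0.960 times in HMEC-1 (0.915 to 1.01). The log2 ratio differed by 0.25 between the lines, and the 2 sets of libraries did not overlap (two-sided exact permutation test, p = 0.00794, the smallest that 5 against 5 allow, and adjusted p = 0.00794 over the 2 ratios tested). Exons of other genes cover 8.35% of DDAH1 and 1.57% of DDAH2.

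Of 7 other genes of methylarginine turnover, 6 were tested and 1 was called (16.7%, against 35.5% of all genes tested). That gene was PRMT6, which places asymmetric methyl groups on arginine. PRMT6 had 0 counts in all 5 EA.hy926 libraries and 866 to 1108 in HMEC-1 (24.2 ± 1.29 CPM), at least 268-fold higher in HMEC-1 against a floor of 3 counts per library. The other methyltransferases were within 0.54 log2 units of equality. PRMT1, the most abundant of them, had 159 ± 2.67 against 189 ± 6.39 CPM (log2FC -0.25). AGXT2, another route of dimethylarginine breakdown, had no count in any library.

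The NO receptor was nearly absent from both lines. GUCY1A1 (ENSG00000164116, chr4:155666726-155737059, plus strand), the usual alpha subunit, had 0 counts in all 10 libraries, which allows at most 0.0904 CPM, the value of 3 counts in the smallest EA.hy926 library. The gene ENSG00000260244 covers 25.0% of its exonic bases and had 0 counts as well. GUCY1A2, the alternative alpha subunit, had 0 counts in EA.hy926, against 2 to 6 counts in HMEC-1, too few to be tested. GUCY1B1 (ENSG00000061918, chr4:155758992-155807811, plus strand), the beta subunit, had 35, 46, 41, 57 and 56 counts in EA.hy926 and 0, 0, 1, 1 and 3 in HMEC-1. These are 1.30 ± 0.238 and 0.0249 ± 0.0321 CPM, so EA.hy926 held a low level and HMEC-1 lay at or under the floor of 3 counts in each library.

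By summed counts GUCY1B1 was 52.2-fold higher in EA.hy926, with an exact 95% interval of 22.1 to 162 that covers counting error only. The fitted log2FC was 5.53 (SE 0.39, adjusted p = 1.9e-11 by edgeR), and leaving out 1 library gave 5.22 to 6.38, the highest without HMEC-1 replicate 5. With GUCY1A1 at 0 throughout, no ratio of the 2 subunits was computed.

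Of 20 listed genes that act beside and after the receptor in cGMP signalling, 12 were tested and 9 were called (75.0%, against 35.5% of all genes tested), 4 higher and 5 lower in EA.hy926. The median log2FC of the 12 was -0.40, and the median absolute log2FC was 1.62, against 0.65 for all genes tested. The list was chosen with earlier results of these data known, so these values describe it and test nothing. NPR1, PDE9A and IRAG1 had few or no counts in 1 of the lines. With at least 10 counts required in every library they were not tested, and 6 genes of the list were called. The natriuretic peptide receptors, which make cGMP without NO, were both lower in EA.hy926. NPR1 had 0 to 1 count in an EA.hy926 library and 83 to 126 in HMEC-1, a fold of 154 by summed counts (exact 95% interval 52.4 to 749.9). NPR2 had 1.42 ± 0.258 against 21.4 ± 1.04 CPM (log2FC -3.90, adjusted p = 1.5e-20 by edgeR).

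The phosphodiesterases that remove cGMP split between the lines. PDE9A, which is specific for cGMP, had 0 counts in all EA.hy926 libraries and 562 to 769 in HMEC-1, at least 179-fold higher in HMEC-1. PDE1C was also lower in EA.hy926 (0.499 ± 0.105 against 1.82 ± 0.0604 CPM, log2FC -1.86). PDE3A, whose breakdown of cAMP is inhibited by cGMP, was higher in EA.hy926, with 29.2 ± 1.00 against 0.638 ± 0.155 CPM and a log2FC of 5.50 (SE 0.087, adjusted p = 7.7e-23 by edgeR). The 3 remaining called genes were named after their values were seen. PDE5A (log2FC 1.39), the target of sildenafil, and PDE2A (log2FC 1.18), which cGMP stimulates, were higher in EA.hy926, and CYB5R3 (log2FC -1.03), a reductase that keeps the haem of the NO receptor reduced, was lower, a call lost when the change was tested against a log2FC of 1 (glmTreat), which left 8 genes of the list called.

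IRAG1, a substrate of cGMP-dependent kinase, was called higher in EA.hy926 at a low level (0.525 ± 0.0789 against 0.0624 ± 0.0671 CPM, log2FC 3.06, adjusted p = 2.2e-06 by edgeR). HMEC-1 had 2, 4, 0, 0 and 6 counts of it, and the log2FC was 3.70 without HMEC-1 replicate 5. The kinase PRKG1 itself, also named after its values were seen, had 3 to 6 counts in EA.hy926, against 0 to 3 in HMEC-1 and was not tested. The most abundant gene that was not called was ADH5, which reduces S-nitrosoglutathione, with 113 ± 2.66 against 146 ± 5.69 CPM (log2FC -0.38).

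The caveolar coat was abundant in both lines. CAV1 (ENSG00000105974, chr7:116524994-116561179, plus strand) had 2369, 2389, 2329, 2254 and 2266 CPM in the EA.hy926 libraries, against 1080.0, 1119, 1058, 1078 and 1062 CPM in HMEC-1. Every EA.hy926 library lay above every HMEC-1 library, with a log2FC of 1.10 (SE 0.024, adjusted p = 2.6e-20). Scaling by library totals gave a log2FC of 0.97, under the size threshold. CAVIN1 (ENSG00000177469, chr17:42402449-42423256, minus strand), the cavin without which caveolae do not form, had 1649, 1536, 1579, 1552 and 1585 CPM in the EA.hy926 libraries, against 1057, 1086, 1077, 1067 and 1054 CPM in HMEC-1. It was higher in every EA.hy926 library, but its log2FC of 0.56 (SE 0.023, adjusted p = 1.7e-15) did not reach the size threshold.

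CAV2 (ENSG00000105971, chr7:116287380-116508541, plus strand), the partner of caveolin-1 in the coat, was the member closest to equality. Its CPM was 184, 185, 182, 179 and 179 in EA.hy926 and 197, 195, 189, 192 and 182 in HMEC-1, and it was the only member tested whose libraries overlapped between the lines. The log2FC was -0.07 (SE 0.026, adjusted p = 0.012), and it moved to -0.21 with library totals.

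CAV2 and CAV1 lie in tandem on chromosome 7, with 16453 bases between the annotated end of CAV2 and the start of CAV1. In level per kilobase of exon, CAV1 was 21.7 times as abundant as CAV2 in EA.hy926 (21.4 to 22.0 over libraries) and 9.61 times in HMEC-1 (9.33 to 9.90). The log2 ratio was 1.18 higher in EA.hy926 (two-sided exact permutation test, p = 0.00794, adjusted p = 0.00794 over the 2 ratios). Because both genes come from the same library, this ratio does not change with the scaling of libraries. The nearest tested protein-coding genes on both sides of the pair were examined. Before it, TFEC, a transcription factor gene, had 83.1 ± 2.92 CPM in EA.hy926 and 0 to 1 count in HMEC-1, whereas TES, which encodes a focal adhesion protein, was lower in EA.hy926 (log2FC -2.40). After it, MET, the receptor of hepatocyte growth factor, and CAPZA2, a capping protein of actin filaments, had log2FC values of 0.35 and -0.14.

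GUCY1A1 and GUCY1B1 are also neighbours, 21933 bases apart on chromosome 4. Downstream of them, TDO2, a tryptophan-degrading enzyme, had 147 to 179 counts in EA.hy926 and 0 in HMEC-1, at least 53.3-fold higher, and CTSO, a cathepsin, was higher in EA.hy926 too (log2FC 2.86, adjusted p = 1.2e-15 by edgeR). The nearest tested protein-coding genes upstream were far away, at 1075984 bases for FGA and 1116326 bases for PLRG1. FGA, a fibrinogen chain, had 61 to 79 counts in EA.hy926 and 0 in HMEC-1, at least 22.5-fold higher, and PLRG1, a spliceosome component, had a log2FC of -0.18.

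Among 17 other genes of the caveolar coat and its partners, 15 were tested. Of these, 7 were called (46.7%, against 35.5% of all genes tested), 2 higher and 5 lower in EA.hy926. None of the other cavins was called. CAVIN2, CAVIN3 and CAVIN4, named after their values were seen, had log2FC values of 0.14, 0.20 and 0.39, and the muscle caveolin CAV3 had at most 2 counts in a library. EHD ATPases shape membrane necks and recycling tubules. EHD1 (376 ± 10.7 against 124 ± 4.20 CPM, log2FC 1.60) and EHD3 (17.2 ± 0.771 against 2.39 ± 0.265 CPM, log2FC 2.84) were higher in EA.hy926, while EHD2, which sits at the neck of caveolae, had 278 ± 15.3 against 329 ± 7.23 CPM (log2FC -0.24) and was not called.

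The lower genes included PACSIN2, a membrane-bending protein of caveolae (62.4 ± 4.36 against 147 ± 1.31 CPM, log2FC -1.24). The flotillins mark membrane domains other than caveolae, and both were lower, FLOT1 with a log2FC of -1.24 and FLOT2 with -1.36. DNM1, the mainly neuronal dynamin, had 6 to 13 counts in EA.hy926, against 2425 to 2973 in HMEC-1 (log2FC -7.94, SE 0.085, adjusted p = 1.4e-25 by edgeR), whereas the ubiquitous DNM2, named after its values were seen, had a log2FC of -0.19. The remaining called gene was ROR1, a receptor-like kinase (log2FC -1.21), also named after its values were seen. The expression most like that of CAV1 over the 10 libraries was found for OXA1L, BMP6 and ERGIC3, with root mean square differences of 0.0269 to 0.0285 in gene-centred log2 CPM. OXA1L inserts proteins into the inner mitochondrial membrane, BMP6 is a growth factor and ERGIC3 works in early secretory transport.

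**Figure D2:**
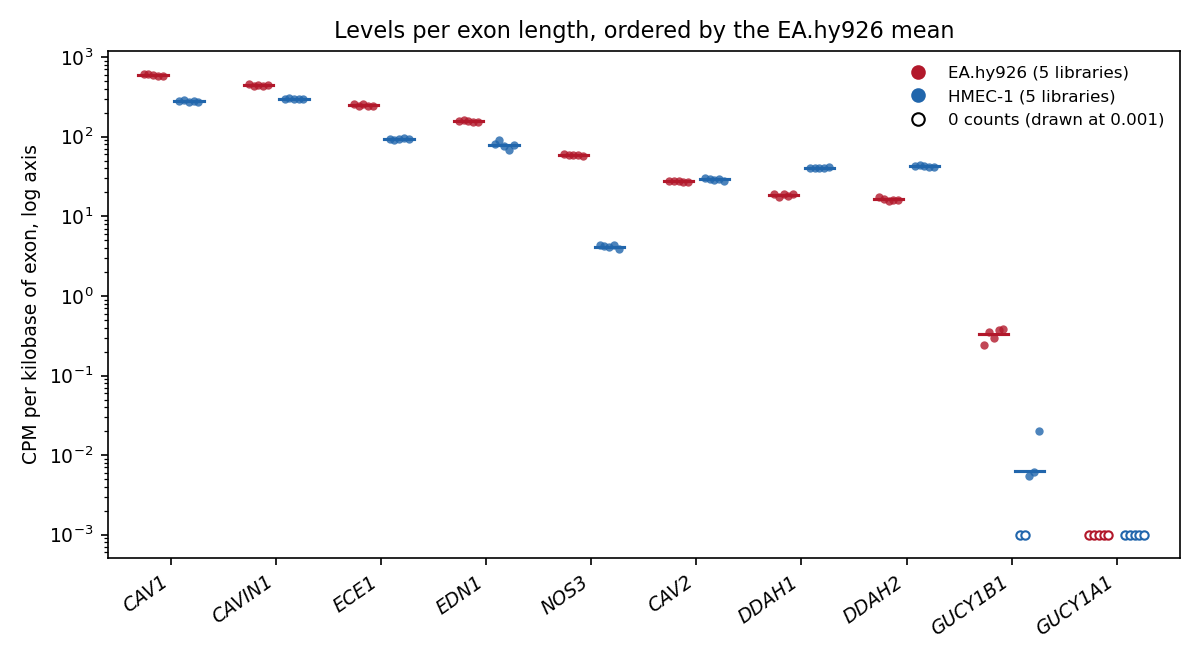
CPM per kilobase of exon (log axis) of the 10 genes in each library, ordered by the EA.hy926 mean, with bars for the mean of a line and open points for 0 counts. CAV1 leads in EA.hy926 and CAVIN1 in HMEC-1, and NOS3 stands at 59.1 in EA.hy926 and 4.17 in HMEC-1.

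The order of the levels per kilobase of exon differed between the lines. In EA.hy926 it was CAV1 (600.1 CPM per kilobase), CAVIN1 (443), ECE1 (249), EDN1 (158), NOS3 (59.1), CAV2 (27.6), DDAH1 (18.7), DDAH2 (16.4), GUCY1B1 (0.329) and GUCY1A1 (0). Each gene in this order lay above the next in all 5 libraries. In HMEC-1 it was CAVIN1 (299), CAV1 (279), ECE1 (93.6), EDN1 (78.6), DDAH2 (42.6), DDAH1 (40.9), CAV2 (29.1), NOS3 (4.17), GUCY1B1 (0.00632) and GUCY1A1 (0). There the libraries of DDAH2 and DDAH1 overlapped, as did those of GUCY1B1 and GUCY1A1, and the other neighbours were separate. CAV1 and CAVIN1 were among the most abundant transcripts of both lines, 41st and 54th of the genes tested in EA.hy926 and 80th and 67th in HMEC-1.

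Of the endothelin genes, EDN1 (ENSG00000078401, chr6:12290361-12297194, plus strand) had 323, 329.8, 319.9, 316 and 316 CPM in the EA.hy926 libraries, against 164, 183, 156, 138 and 159 CPM in HMEC-1. The HMEC-1 libraries were spread more widely (CV 10.1%) than those of EA.hy926 (CV 1.86%), and the lines did not overlap. The log2FC was 1.00 (SE 0.047, adjusted p = 1.4e-14), so close to the size threshold that the call was lost under several alternatives. It was lost with library totals (0.87), without the filter on low counts (0.98), and without HMEC-1 replicate 1 (0.998), 3 (0.98), 4 (0.94) or 5 (0.99), while the direction and the adjusted p under 0.05 held in each. Among the 3 genes most like EDN1 over the 10 libraries were TIMP1, an inhibitor of metalloproteinases, and INSYN2B, with root mean square differences of 0.0642 and 0.0680 in gene-centred log2 CPM.

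ECE1 (ENSG00000117298, chr1:21217247-21345572, minus strand) encodes the protease that makes active endothelin-1. It had 1903, 1755, 1858, 1801 and 1794 CPM in the EA.hy926 libraries, against 675, 673, 690.2, 697 and 684 CPM in HMEC-1. All EA.hy926 libraries lay above all HMEC-1 libraries, with a log2FC of 1.41 (SE 0.025, adjusted p = 5.5e-22) and a range of 1.39 to 1.43 when libraries were left out singly. Exons of the antisense gene ECE1-AS1 cover 3.28% of ECE1, and ECE1-AS1 had at most 13 counts in a library.

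**Figure D3:**
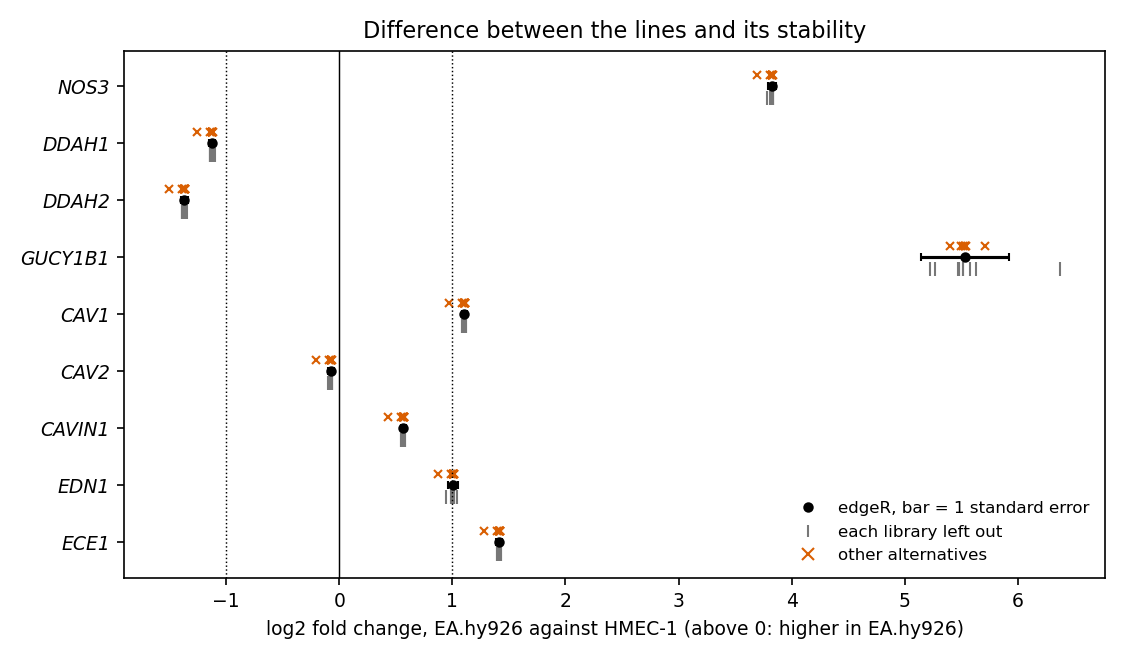
Log2FC of the 9 tested members (points, with bars of 1 standard error), the values with each library left out (grey ticks) and those under the other alternatives (crosses), with dotted lines at the size threshold of 1 in either direction. EDN1 and CAV1 lie nearest to the threshold, and the value of GUCY1B1 moves most.

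Of 13 other endothelin genes, 8 were tested and 4 were called (50.0%, against 35.5% of all genes tested), 2 higher and 2 lower in EA.hy926. The receptors were opposite in the lines. EDNRB, the receptor through which endothelial cells bind and clear endothelin-1, had 316, 317, 318, 342 and 324 counts in EA.hy926 and 1, 0, 0, 0 and 0 in HMEC-1. EDNRA, which mediates contraction in smooth muscle, had 0 counts in all EA.hy926 libraries and 23, 20, 16, 23 and 16 counts in HMEC-1. Each receptor was at 0 or 1 count in every library of the line in which it was lower. By summed counts EDNRB was 1797-fold higher in EA.hy926 (exact 95% interval 322 to 71037, from a single count in HMEC-1), and its fitted log2FC was 10.08 (adjusted p = 4.5e-20 by edgeR), or 11.42 without HMEC-1 replicate 1. EDNRA was at least 5.48-fold higher in HMEC-1 and stayed at a low level there, with 0.495 ± 0.121 CPM.

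EDN2, which encodes another endothelin peptide, had 0, 0, 1, 0 and 0 counts in EA.hy926 and 77, 77, 69, 71 and 63 in HMEC-1, a fold of 321 by summed counts (exact 95% interval 57.3 to 12721). The fitted log2FC was -7.67, or -9.10 without EA.hy926 replicate 3, the library with the single count. EDN3 had no count in any library. MME encodes neprilysin, a surface peptidase that degrades endothelin and natriuretic peptides. It had 342 ± 5.67 against 16.4 ± 1.21 CPM, with no overlap and a log2FC of 4.38 (SE 0.038, adjusted p = 4.6e-27 by edgeR). FURIN was the most abundant gene of the list that was not called (382 ± 11.8 against 199.8 ± 4.46 CPM, log2FC 0.94), and ECE2, named after its values were seen, lay at 0.99. The gene EEF1AKMT4-ECE2 covers 62.7% of the exonic bases of ECE2, so reads in the shared bases cannot be assigned. ECE2 passed the size threshold (1.00 to 1.04) without EA.hy926 replicate 1 or 5 and without HMEC-1 replicate 1, 4 or 5. With MMEL1, which was tested and called lower without HMEC-1 replicate 1 or 5, the genes of the list called ranged from 4 to 6. EDN1, FURIN and ECE1 thus all had their higher mean in EA.hy926.

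**Figure D4:**
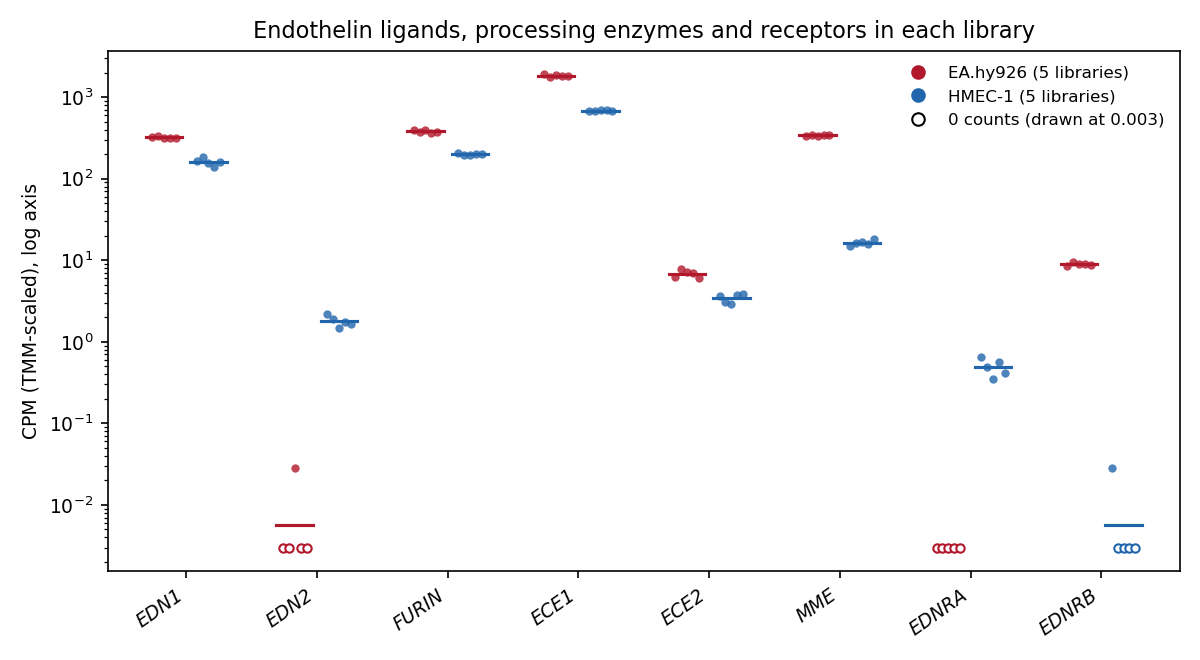
CPM (log axis) of endothelin ligands, processing enzymes, the degrading enzyme MME and the 2 receptors in each library, with bars for the mean of a line and open points for 0 counts. EDNRB has 8.56 to 9.55 CPM in EA.hy926 and at most 1 count in HMEC-1, and EDNRA and EDN2 exceed 1 count in HMEC-1 but not in EA.hy926.

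Over the 5 pathway lists together, 26 of 63 tested genes were called (41.3%), 9 higher and 17 lower in EA.hy926, and the median log2FC was -0.19. The share called among all genes tested was 35.5%.

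**Figure D5:**
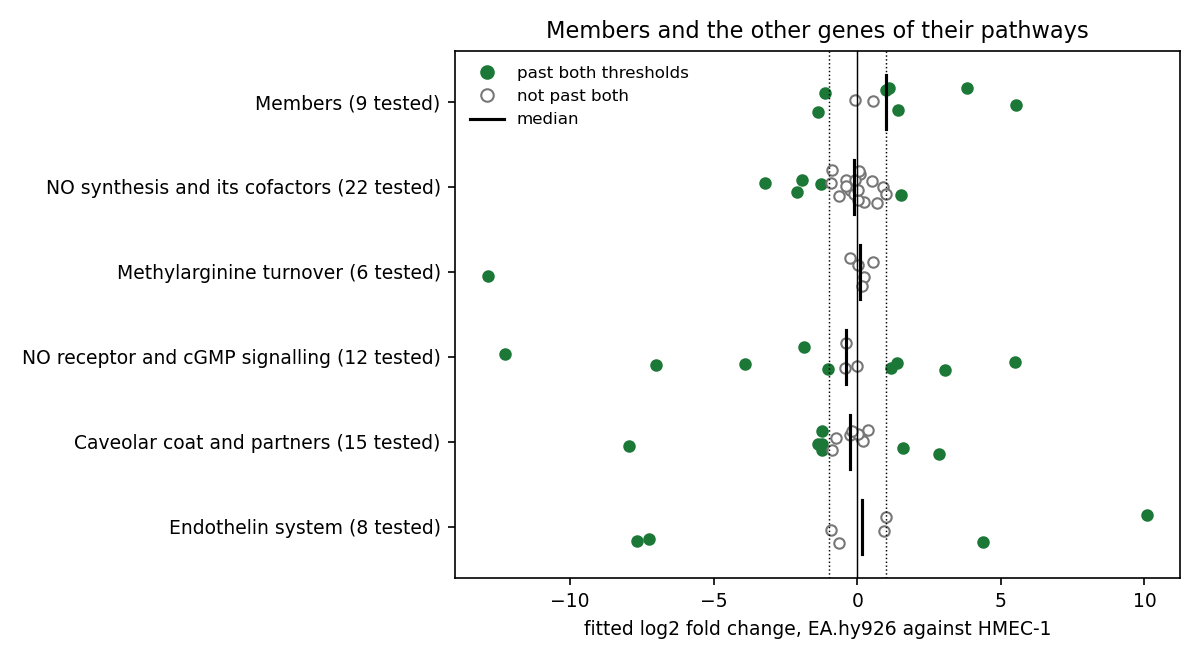
Fitted log2FC of the tested members and of the other tested genes of each pathway, with filled points for called genes, open points for the others, bars for the median and dotted lines at the size threshold. The values of PRMT6, PDE9A, NPR1, EDN2, EDNRA and EDNRB belong to genes with 0 or 1 count in every library of a line and depend on the prior count of the fit.

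Markers of cell types were examined beside these results. All 6 defining endothelial markers (PECAM1, CDH5, VWF, TEK, TIE1 and KDR) were present in every library of both lines, with at least 808 counts. The 20 endothelial markers had a summed level of 6533 ± 336 CPM in EA.hy926, led by PECAM1 (1633 ± 158 CPM). In HMEC-1 the sum was 2212 ± 25.4 CPM, led by CDH5 (441 ± 5.39 CPM). Of the 20, 12 were called higher and 3 lower in EA.hy926 (75.0% together, against 35.5% of all genes tested). Of the members called, NOS3, GUCY1B1, CAV1, ECE1 and EDN1 were higher, and DDAH1 and DDAH2 lower, in the line with the higher endothelial sum. KDR had a log2FC of -0.04 (adjusted p = 0.61 by edgeR). The summed epithelial markers and the summed smooth muscle and pericyte markers were higher in EA.hy926 too. The part of the endothelial marker difference in the results above was not tested.

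Markers of other cell types differed too. The 20 epithelial markers summed to 1404 ± 53.3 against 479 ± 24.1 CPM, led by KRT7 in both (622 ± 30.7 and 314 ± 19.6 CPM). Of the 11 tested, 3 were called higher and 4 lower (63.6% together, against 35.5% of all genes tested). Of the defining markers of epithelium, CDH1 had at most 1 count in a library and EPCAM 25 to 40 counts in EA.hy926, against 4 to 22 in HMEC-1. The 14 smooth muscle and pericyte markers summed to 511 ± 19.4 CPM in EA.hy926, mostly from RGS5 (430.0 ± 23.5 CPM), and to 201 ± 4.11 CPM in HMEC-1, led by SMTN. Of the 9 tested, 2 were called higher and 5 lower (77.8% together, against 35.5% of all genes tested). MYH11 had at most 35 counts in a library, CNN1 at most 32 and MYOCD at most 6. The 10 fibroblast markers summed to 1.54 ± 0.217 CPM in EA.hy926, led by PI16 (1.11 ± 0.254 CPM), and to 474 ± 9.70 CPM in HMEC-1, led by COL1A1 (358 ± 9.29 CPM), while PDGFRA had at most 7 counts and DCN none. All 6 tested fibroblast markers were called lower in EA.hy926, against 16.4% of all genes tested. The part of these marker differences in the results above was not tested.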

How the data were processed

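RNA-seq of oligo(dT)-selected mRNA covered 5 biological replicates of each line. The authors trimmed reads with fastp, used HISAT2 with GRCh38 for alignment and counted reads over genes (HTSeq in the paper, featureCounts in the submitters' processing notes). The deposited values are these raw counts, without normalization. Versions, strand setting and annotation release are not given in the sources used here. Groups and replicate numbers came from the sample titles.

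GENCODE 44 matched 56434 of 60448 identifiers and gave symbols, GRCh38 coordinates and exon lengths, and 27377 genes had no count. Overlap of exons on either strand was found with bedtools 2.31.1. With edgeR 4.0.16 (R 4.3.3), filterByExpr was applied (minimum count 10, minimum total 15), TMM factors were computed (0.942 to 0.964 for EA.hy926, 1.04 to 1.05 for HMEC-1) and the quasi-likelihood test was fitted without covariates. The standard error is the absolute log2FC over the square root of F. The floor of 3 counts equals 0.0781 to 0.0904 CPM for EA.hy926 libraries and 0.0651 to 0.0856 CPM for those of HMEC-1. No molecular identifiers were used, so floors and exact (Clopper-Pearson) 95% intervals cover counting error only. Log2 CPM carry a prior count of 2. Partner ratios were compared by exact permutation tests (scipy 1.17.1).

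The members and the gene lists were chosen with earlier results of these data known. Named genes were the 10 members, the called genes of each pathway list up to the 6 with the largest absolute log2FC, its most abundant gene that was not called, the leading gene of each marker list in each line with the defining markers, the 3 genes most alike to NOS3, CAV1 and EDN1, and the 2 nearest tested protein-coding genes on each side of the paired loci. Of the genes this rule names, 2 are not reported here. Alternatives were DESeq2 1.42.0, limma-voom (limma 3.58.1), RLE factors, library totals, no filter, at least 10 counts in every library, a replicate block, glmTreat, and each library left out. On simulated counts of this comparison, edgeR called 193 of 194 tested genes changed 3-fold, and 4 others among 16058 genes. Libraries of a line differed beyond sampling noise (chi-square per degree of freedom 3.12 to 7.82). Promoter windows came from RefSeq on GRCh38.p14.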

Additional observations from a re-analysis of the deposited data

How the results depend on the processing

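When libraries were left out singly, 241 values kept their call or stayed within 1.5 times, 4 lost the call and 5 moved further, each of the 5 being the count of NO synthesis genes called higher, which went from 1 to 2 with KLF2. Under the other alternatives these numbers were 175, 4 and 8. No direction reversed under any alternative run. Over the single libraries left out, the log2FC of EDN1 ranged from 0.94 to 1.04, the members called from 6 to 7, and the genes called in the whole table from 5945 to 6000. CAV1 was not called with library totals (0.97), nor EDN1 with library totals (0.87), without the filter (0.98) or with glmTreat (log2FC 1.00, adjusted p = 0.644 against a log2FC of 1). With library totals 3 of the members were called higher in place of 5, and PTS, NOSTRIN, PLVAP and PCSK5 of the gene lists were called lower (-1.06 to -1.01). The genes called in the table numbered 9312 without the filter and 3255 with at least 10 counts in every library, where more and fewer genes are tested. Under the latter, 0 genes of methylarginine turnover and 2 of the endothelin list were called, as PRMT6, EDN2, EDNRA and EDNRB are not tested there. ECE2 gained a call there (log2FC 1.00), MME kept its own, and GUCY1B1 has no value. The cGMP list had 6 genes called there, without NPR1, PDE9A and IRAG1, and the caveolar list 6, without DNM1.

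The replicate numbers share only a number, since libraries with the same number did not deviate together (correlations of -0.0228 to 0.0389, against -0.0464 to 0.0470 for other numbers, and 2 of the EA.hy926 libraries correlated best with their own number). With the replicate block 7 members and 5786 genes were called, 5775 of them also without it, and no call of a member changed. The ratio of GUCY1A1 to GUCY1B1 was not run, as GUCY1A1 had no count. With 3 counts worth up to 0.0904 CPM, a gene with no count in a line, such as GUCY1A1 in both or GUCY1A2 in EA.hy926, could be present there below that level.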
